A study of Mus musculus with 6 samples.

Results

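The stefin A gene cluster of the mouse lies on chromosome 16 and holds the genes Stfa1, Stfa2, Stfa3 and Stfa2l1 among related copies. Its members here are all ATAC-seq peaks within 50 kb of any of these 4 genes (GENCODE M21, mm10), so the peak calls themselves chose the members, and the presence of a peak is given below as a description with no test. The rule found 129 peaks of 438111 in the 6 lists, which merge into 38 regions of 112852. Open chromatin was mapped in leukemia stem cells (LSCs), the leukemic granulocyte-macrophage progenitors (L-GMPs) of an acute myeloid leukemia (AML) that a retroviral MLL-AF9 fusion induces in C57BL/6J mice. All samples carry the genotype label WT and the cell line label L-GMP, with blood as tissue, and were grown with mouse IL3. The comparison asks how blocking guanine nucleotide synthesis with mycophenolate mofetil (MMF), an inhibitor of inosine monophosphate dehydrogenase, changes accessible chromatin. It sets 3 Control against 3 MMF samples, treated for 24 h by the labels, although the study's methods and one of its legends differ on dose and duration. The groups share the fusion and the culture, the vehicle of the Control samples is not named in the labels, and nothing states whether the samples came from separate cultures or mice, so p-values measure the spread between these samples, which may be technical.

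Stefins are small intracellular inhibitors of papain-like cysteine proteases, the cysteine cathepsins, and block them by filling the active site cleft. In humans a single gene, CSTA, encodes stefin A, whereas in the mouse the gene has been copied repeatedly. Stefin A transcripts are known from maturing neutrophils and other myeloid cells and from skin. In ATAC-seq, the Tn5 transposase inserts adapters where DNA is exposed, so a peak upstream of a gene marks an accessible promoter and says nothing directly about its transcript.

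Stfa2l1 (ENSMUSG00000059657) spans chr16:36156811-36161953 and Stfa1 (ENSMUSG00000071562) spans chr16:36276951-36285373, both on the plus strand. Stfa2 (ENSMUSG00000022902) spans chr16:36403992-36408457 and Stfa3 (ENSMUSG00000054905) spans chr16:36450537-36455392, both on the minus strand. Around them lie the protein-coding genes Csta1, Cstdc4, Csta3, Csta2, Cstdc6 and Cstdc5, all related stefin or cystatin-domain genes, and, at the far end, Casr, which encodes the calcium-sensing receptor. GENCODE lists several of these under the older names Gm5483 (Cstdc4), Gm5416 (Csta3), 2010005H15Rik (Csta2), BC117090 (Cstdc6) and BC100530 (Cstdc5).

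The promoters are copies too. A BLASTN search of the span of the 4 windows with the 300-base promoter of Stfa1 from RefSeq (250 bases before and 50 after the start) found 19 promoter-like copies. The query Stfa1 is among them at 100% identity, and the others aligned at 80.1% to 96.0%. Of the 19 copies, 4 belong to the stefin A genes, 6 to the other family genes, 3 to the pseudogenes Cstdc3, Gm7260 and Gm49652, and 6 have no annotated start within 300 bp. The 250 bases upstream of the RefSeq starts of the 4 stefin A genes were 80.2% to 89.4% identical in pairs, and Stfa2 and Stfa2l1 were the closest pair. The sequences below (RefSeq, GRCm38.p6, 5′ to 3′) are shown because peaks of the locus overlap them. Capitals mark every run of 10 or more bases that all 4 stefin A promoters share. Stfa2 and Stfa1 are cut where an exon of GENCODE M21 begins, so the bases under the Stfa1 summits are not shown. Most Stfa3 summits lay just upstream of the printed bases. The last line is the copy with no annotated start whose peak ranked highest in Control.
Stfa3, chr16:36455393-36455642, minus strand: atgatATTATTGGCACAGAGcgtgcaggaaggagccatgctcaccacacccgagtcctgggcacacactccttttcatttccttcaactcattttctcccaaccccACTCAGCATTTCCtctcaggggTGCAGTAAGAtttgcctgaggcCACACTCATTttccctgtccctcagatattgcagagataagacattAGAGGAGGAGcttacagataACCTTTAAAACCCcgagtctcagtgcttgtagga
Stfa2l1, chr16:36156561-36156810, plus strand: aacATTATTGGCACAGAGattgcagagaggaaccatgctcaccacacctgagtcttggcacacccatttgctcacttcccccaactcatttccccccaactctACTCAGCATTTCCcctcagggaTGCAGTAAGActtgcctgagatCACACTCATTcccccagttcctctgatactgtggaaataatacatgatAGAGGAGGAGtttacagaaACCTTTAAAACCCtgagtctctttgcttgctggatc
Stfa2, part, chr16:36408458-36408613, minus strand: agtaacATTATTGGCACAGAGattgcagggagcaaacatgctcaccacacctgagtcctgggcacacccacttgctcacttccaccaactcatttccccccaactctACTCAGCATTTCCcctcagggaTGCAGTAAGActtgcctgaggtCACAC
Stfa1, part, chr16:36276898-36276950, plus strand: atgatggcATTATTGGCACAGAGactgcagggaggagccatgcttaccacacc
Copy with no annotated start, chr16:36260750-36260999, plus strand: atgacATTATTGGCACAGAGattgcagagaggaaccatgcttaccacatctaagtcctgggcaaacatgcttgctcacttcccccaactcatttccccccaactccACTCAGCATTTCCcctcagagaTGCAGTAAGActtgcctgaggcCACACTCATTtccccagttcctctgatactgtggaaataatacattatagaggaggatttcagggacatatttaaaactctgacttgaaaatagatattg

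Within the 250 upstream bases, 71 bases in 6 blocks were common to the 4 genes. The 4 genes hold every block by definition and are counted among the copies, so the counts below are no independent finding. The longest, ATTATTGGCACAGAG, was present in 6 of the 19 copies and in 5 (0.0152%) of 32851 RefSeq promoters. ACTCAGCATTTCC, closer to the start, was present in 13 of 19 copies and in 9 promoters (0.0274%). The block nearest the start, ACCTTTAAAACCC, was present in 10 of 19 copies and in 8 promoters (0.0244%). It holds a TATA-like stretch, TTTAAAA, between positions -33 and -29 from the start in the 4 genes. On either strand, TTTAAAA was found in 16 of 19 copies and in 8.10% of all promoters. The core motif of RUNX factors, TGTGGT, was found in 17 of 19 copies and 14.0% of promoters, and in 3 of the 4 genes it overlaps an E-box, CACCTG, which was found in 12 of 19 copies and 17.2% of promoters. The core of PU.1, the master regulator of myeloid cells, searched as GAGGAA, was found in 17 of 19 copies and 23.3% of promoters. The NF-Y letters CCAAT were found in 7 of 19 copies, all 4 stefin A genes included, and in 33.8% of promoters. Of the other motifs searched, that of GATA factors, AGATAA, was found in 9 of the 19 copies, that of C/EBP, TTGCNNAA, in 5 and that of AP-1, TGANTCA, in 0, against 9.99%, 9.56% and 6.75% of promoters. The copies are related sequences, so these shares are not independent, and a match of letters is not a bound site.

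Near-identical copies can draw reads away from or onto each other, so each region was searched for exact repeats. In 31 of the 38 regions, all 18 regions at promoter-like copies included, the search reported no 36-base repeat on chromosomes 1 to 19, X and Y. It kept only ungapped alignments identical over their whole length and missed exact stretches within longer, imperfect matches, so 31 is an upper limit. The Stfa2 and Stfa2l1 promoters printed above share an exact stretch of more than 36 bases. So do Stfa2l1 and the printed copy with no annotated start. The other 7 regions, all away from the copies, held 36-base repeats, reported for 6.90% to 100% of their 36-base stretches. These shares are minimum values. Repeats with mismatches and the aligner's handling of multiply mapped reads were not examined.

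More sites of the locus were called accessible with MMF. The Control lists held 15, 12 and 13 peaks of the locus and the MMF lists 28, 32 and 29, and the groups did not overlap. The MMF lists were also longer (80893 to 86556 peaks, against 58496 to 63911 in Control). Per 10000 peaks of the list, the locus held 2.35, 1.93 and 2.22 peaks in Control and 3.23, 3.71 and 3.58 with MMF. A gained region has a peak in all 3 MMF lists and no Control list: 8 of the 38 regions were gained (genome-wide, 6.0% of regions), 0 were lost (0.182%), and 10 had a peak in all 6 lists (36.5%). A further 13 regions had peaks in 1 or 2 MMF lists only, 7 were present in both groups but not in all 6 lists, and 0 were found in Control lists alone. The shares of these further classes over all regions were not computed, so these counts are not set apart from the longer MMF lists. In the 200 kb on either side of the locus, 7 of 37 regions were gained, a share of 18.9% beside 21.1% in the locus. The 11 regions found in a single list rest on summits of 6 to 13 reads. At the edge of the 50 kb rule, the farthest member (chr16:36334314-36334694, 48.9 kb from Stfa1) had a peak in all 6 lists, and the nearest region left out (chr16:36505925-36506160, 50.5 kb from Stfa3) had one in the 3 MMF lists.

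**Figure D1:**
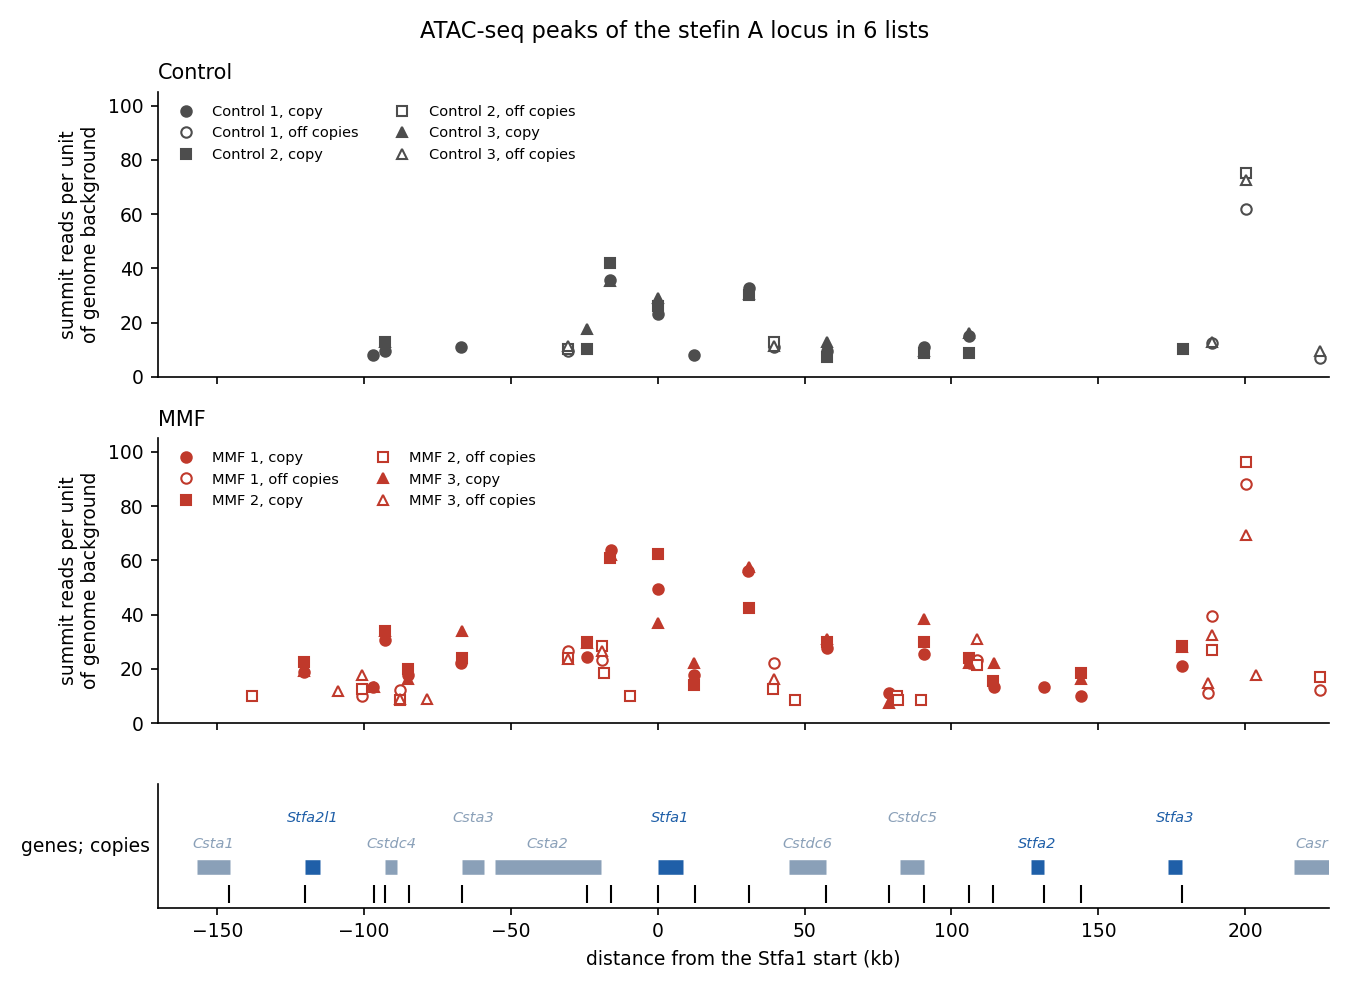
Peaks of the locus in each sample, plotted by distance of the summit from the Stfa1 start in GENCODE (kb, horizontal) and by summit reads per unit of genome background (vertical), for Control (top) and MMF (middle), with protein-coding genes as bars (stefin A genes dark blue) and the 19 promoter-like copies as ticks (bottom). Filled symbols are peaks at copies and open symbols are other peaks; the Control lists have 40 and the MMF lists 88 plotted regions with a peak, and the highest symbols in both panels lie about 200 kb from Stfa1, between Stfa3 and Casr.

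Height is given on 2 scales. The percentile rank orders the peaks of a list by fold enrichment over the local background (100 is the highest), and summit reads per unit of background divide the reads over the summit by the genome-wide background of that sample, which stood at 0.620 to 0.909 reads per summit window. Summits of the locus held 5 to 80 reads, so single values are coarse. Peak calls come from pooled cells, and more cells with an open site cannot be told apart from more insertions per cell.

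Of the 19 promoter-like copies, 18 carried a peak in at least 1 list, and the copy at Csta1 was the exception. The copies took 18 of the 38 regions and 4 of the 8 gained ones. In Control, the 27 copy peaks had a median of 12.9 summit reads per unit of background (range 7.23 to 41.9) and a median rank of 34.1. With MMF, the 50 copy peaks had a median of 24.1 (range 7.39 to 63.8) and a median rank of 74.3. The remaining 20 regions had a median of 11.3 in Control and 17.4 with MMF. These medians pool called peaks over the lists of a group and do not cover the same regions. Copy regions with a peak numbered 10, 9 and 8 in Control and 18, 15 and 17 with MMF, and those without a peak have no value. The 77 summits at copies lay upstream of the position that aligns with the RefSeq start of Stfa1, at offsets from -294 to -37 bp with a median of -162 bp. No summit fell downstream of that position. The query held 250 bases before the start and 50 after it, so the search itself favoured upstream summits. Of the 77 summits, 68 lay 100 to 260 bp upstream, at annotated genes, pseudogenes and copies without a start. The first shared block printed above begins at -242 to -247 bp in the stefin A genes. Some summits lay upstream of the blocks, those of Stfa3 (median -254 bp) among them.

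**Figure D2:**
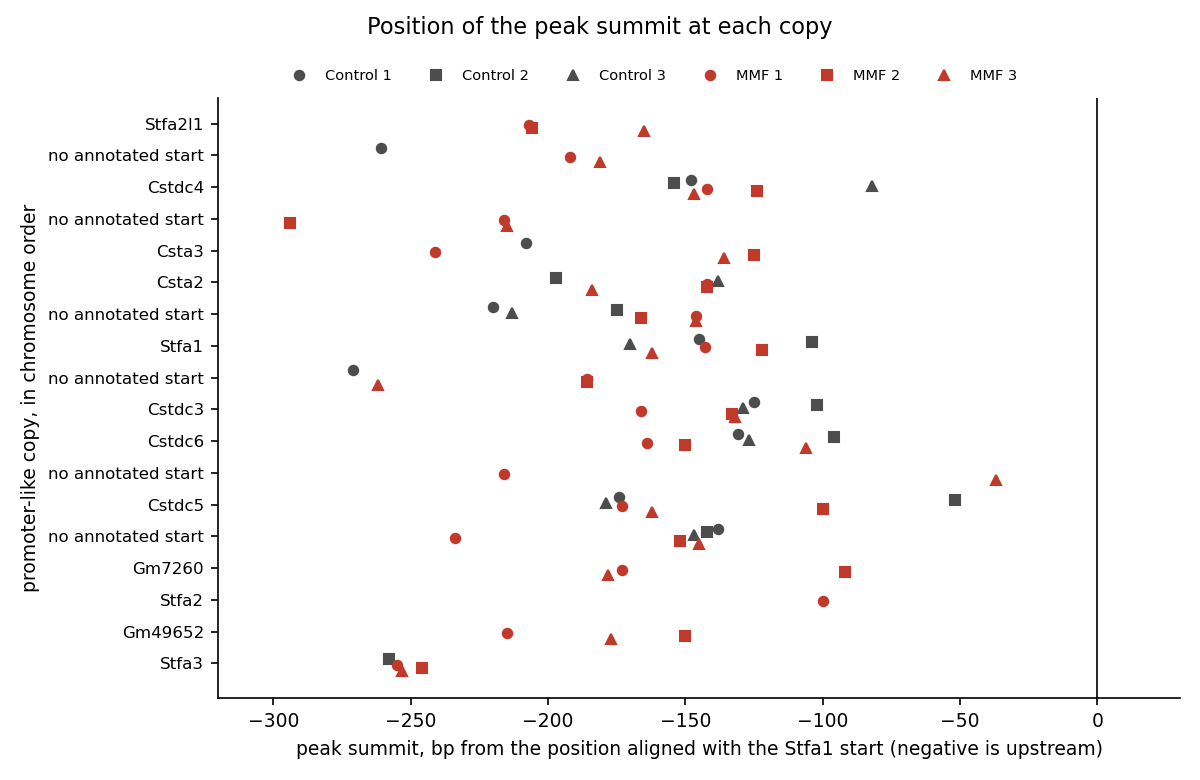
Summit positions at the 18 promoter-like copies with a peak (vertical, in chromosome order), in bp from the position aligned with the RefSeq start of Stfa1 (0, vertical line; negative is upstream), with a symbol for each sample. Every summit is upstream, between -294 and -37 bp, with Control (grey) and MMF (red) symbols in the same range.

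Stfa1 had the most accessible promoter of the 4 stefin A genes. Its peak (chr16:36276811-36277285) covers the RefSeq start and the first exon of a longer GENCODE transcript, and had 23.3, 26.0 and 29.0 summit reads per unit of background in Control and 49.5, 62.3 and 37.0 with MMF. All 3 MMF samples were above all 3 Control samples, and the mean was 1.90-fold higher (26.1 ± 2.85 against 49.6 ± 12.7, SD, n = 3). By rank it stood at 74.3, 77.9 and 80.5 in Control and at 92.5, 97.8 and 85.4 with MMF, again without overlap. This separation by rank depended on the longer MMF lists. With all lists cut to 58496 peaks, the mean rank difference of Stfa1 fell from 14.4 to 12.2 and the groups overlapped. The promoter of Stfa3 was called in a single Control sample, Control 2, at rank 21.2, and in all MMF samples at ranks 71.0, 81.7 and 81.6. On the read scale that Control peak had 10.1 summit reads per unit of background and the MMF peaks had 20.9, 28.3 and 28.1. Its summits lay the farthest upstream of the 4 genes, at a median offset of -254 bp.

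Stfa2l1 had no promoter peak in any Control list and was gained with MMF, at 18.7, 22.7 and 19.2 summit reads per unit of background and ranks of 65.8, 71.3 and 62.5. Stfa2, the closest to it in sequence, had a peak in MMF 1 alone, with 12 reads over the summit and rank 44.7, and none in the other 5 lists. Stfa1, Stfa3 and Stfa2l1, by contrast, were called in every MMF list. The promoters of Stfa2 and Stfa2l1 share a long exact stretch, as stated above. The part of multiply mapped reads in the peaks of Stfa2 and Stfa2l1 was not tested. In order of mean MMF rank the genes stood as Stfa1 (91.9 ± 6.22), Stfa3 (78.1 ± 6.16), Stfa2l1 (66.5 ± 4.49) and Stfa2 (14.9 ± 25.8; SD, n = 3 each). The MMF samples of Stfa1 and Stfa3 did not overlap, nor did those of Stfa2l1 and Stfa2, while the highest value of Stfa2l1 (71.3) lay above the lowest of Stfa3 (71.0). These ranks come from the peaks that chose the members and carry no test, and an exact permutation test of 3 against 3 samples cannot go below p = 0.1. Among 13942 protein-coding genes with a promoter peak, 8.79% had all MMF ranks above all Control ranks and 8.43% all below, with a median difference of -0.02 rank units.

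**Figure D3:**
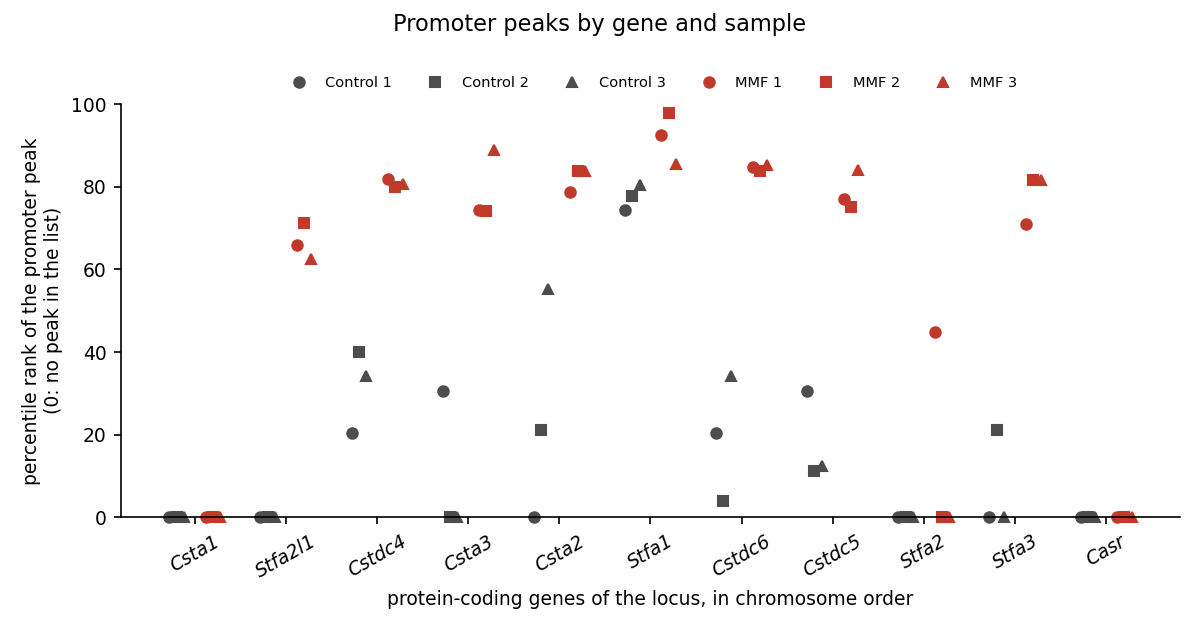
Percentile rank (vertical, 0 where a list has no peak) of the highest peak within 1000 bp of a transcription start for the 11 protein-coding genes of the locus in chromosome order (horizontal), with a symbol for each of the 6 samples. In Csta3, Csta2, Cstdc4, Cstdc5, Cstdc6, Stfa1, Stfa3 and Stfa2l1 every MMF symbol (red) lies above every Control symbol (grey), whereas Csta1 and Casr stay at 0 in all lists.

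Most of the related genes had higher promoter ranks with MMF. Cstdc4 went from ranks of 20.3, 40.0 and 34.1 in Control to 81.8, 79.9 and 80.6 with MMF. Cstdc6 went from 20.3, 3.87 and 34.1 to 84.7, 83.8 and 85.2, and Cstdc5 from 30.6, 11.1 and 12.5 to 77.1, 75.2 and 84.0. In these 3 genes no MMF sample came near a Control sample. Csta3 had a peak in Control 1 alone, at rank 30.6, and ranks of 74.3, 74.3 and 89.0 with MMF. Csta2, with a copy at an internal start, was absent from Control 1, had ranks of 21.2 and 55.4 in Control 2 and 3, and 78.8, 83.8 and 83.9 with MMF. Casr had no promoter peak in any list, although a weak region within its intron (chr16:36502360-36502604) was called in 2 Control and 2 MMF lists.

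Regions with a peak in all 6 lists could be tested as part of the fit over all 41182 such regions of the genome. For this test, fold enrichment was ranked anew among these shared regions in each list, and the ranks were turned into normal scores. limma on these scores called 4 of the 10 member regions higher with MMF and 0 lower at a Benjamini-Hochberg adjusted p below 0.05 (genome-wide, 1.44% of regions higher and 0.425% lower). A normal score of 1 is the SD of the scores over the shared regions. The 10 regions had been chosen by their peaks, and the heights tested come from these same peak calls. A region low in Control entered the test only where its peak was still called. The calls are therefore not independent of the choice of regions.

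Of the called regions, 3 are the copies at Cstdc4, Cstdc6 and Cstdc5. The Cstdc5 promoter (chr16:36367403-36367898, overlapping its first exon) had 11.0, 8.68 and 9.67 summit reads per unit of background in Control and 25.3, 29.7 and 38.4 with MMF, a 3.19-fold higher mean (difference of 1.79 score units, SE 0.257, adjusted p = 0.0297). The Cstdc6 promoter (chr16:36334314-36334694) had 9.60, 7.23 and 12.9 in Control and 27.5, 29.7 and 31.0 with MMF, a 2.97-fold higher mean (2.11 score units, SE 0.342, adjusted p = 0.0353). The Cstdc4 promoter (chr16:36183938-36184253) had 9.60, 13.0 and 12.9 in Control and 30.8, 34.0 and 34.0 with MMF, a 2.78-fold higher mean (1.41 score units, SE 0.241, adjusted p = 0.0388). The groups are wide apart in all 3, and their Control summits rest on 5 to 9 reads.

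The fourth called region (chr16:36246378-36246754) is away from the copies, in an intron of Csta2. It had 9.60, 10.1 and 11.3 summit reads per unit of background in Control and 26.4, 24.1 and 23.7 with MMF, a 2.39-fold higher mean (1.54 score units, SE 0.220, adjusted p = 0.0297). Of its 36-base stretches, at least 21.3% occur elsewhere in the genome, and of its 50-base stretches at least 6.71% do. The part of repeats in its change was not tested. All 4 calls were lost when any one of the 6 samples was left out (adjusted p from 0.0616 to 0.120), where the whole genome then gave 0 calls or, without Control 1, 9. The direction of the 4 differences was the same each time.

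The 6 other shared regions did not pass the test on ranks. The Stfa1 promoter had an adjusted p of 0.226 (0.66 score units, SE 0.301). At the pseudogene Cstdc3 (chr16:36307686-36308061, beside a RefSeq start) the samples had 32.9, 30.4 and 30.6 summit reads per unit of background in Control and 56.1, 42.5 and 57.7 with MMF (adjusted p = 0.103). The copy with no annotated start that is printed above (chr16:36260644-36261029) was the highest copy in Control, with 35.7, 41.9 and 35.5, and had 63.8, 60.9 and 62.1 with MMF (adjusted p = 0.569). It stood at ranks of 84.6 to 92.1 in Control. A copy inside the antisense gene Gm15845 (chr16:36382829-36383162) had 15.1, 8.68 and 16.1 in Control and 22.0, 24.1 and 22.2 with MMF (adjusted p = 0.443). Away from the copies, the region chr16:36316241-36316588 had 11.0, 13.0 and 11.3 against 22.0, 12.7 and 16.3, with overlapping groups (adjusted p = 0.485).

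On the read scale, the most accessible region of the locus was none of the copies. The region chr16:36476806-36477531, between Stfa3 and Casr, had 61.7, 75.2 and 72.6 summit reads per unit of background in Control and 88.0, 96.3 and 69.5 with MMF. MMF 3 lay below Control 2 and 3, and the adjusted p was 0.838 (0.14 score units, SE 0.339). Its ranks ran from 92.0 to 97.4 in Control and from 91.1 to 99.2 with MMF. Its mean rank was above that of the Cstdc3 copy in Control (95.3 against 85.0) and below it with MMF (96.3 against 97.4). The 150 bases around the summit of its highest peak are shown for comparison with the copies, with the only match of the 8 motifs, the RUNX core on the opposite strand, in capitals (GRCm38, 5′ to 3′).
Region between Stfa3 and Casr, chr16:36477095-36477244, plus strand: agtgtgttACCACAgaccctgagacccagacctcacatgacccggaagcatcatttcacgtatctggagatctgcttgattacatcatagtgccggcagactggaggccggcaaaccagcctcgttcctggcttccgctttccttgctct

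**Figure D4:**
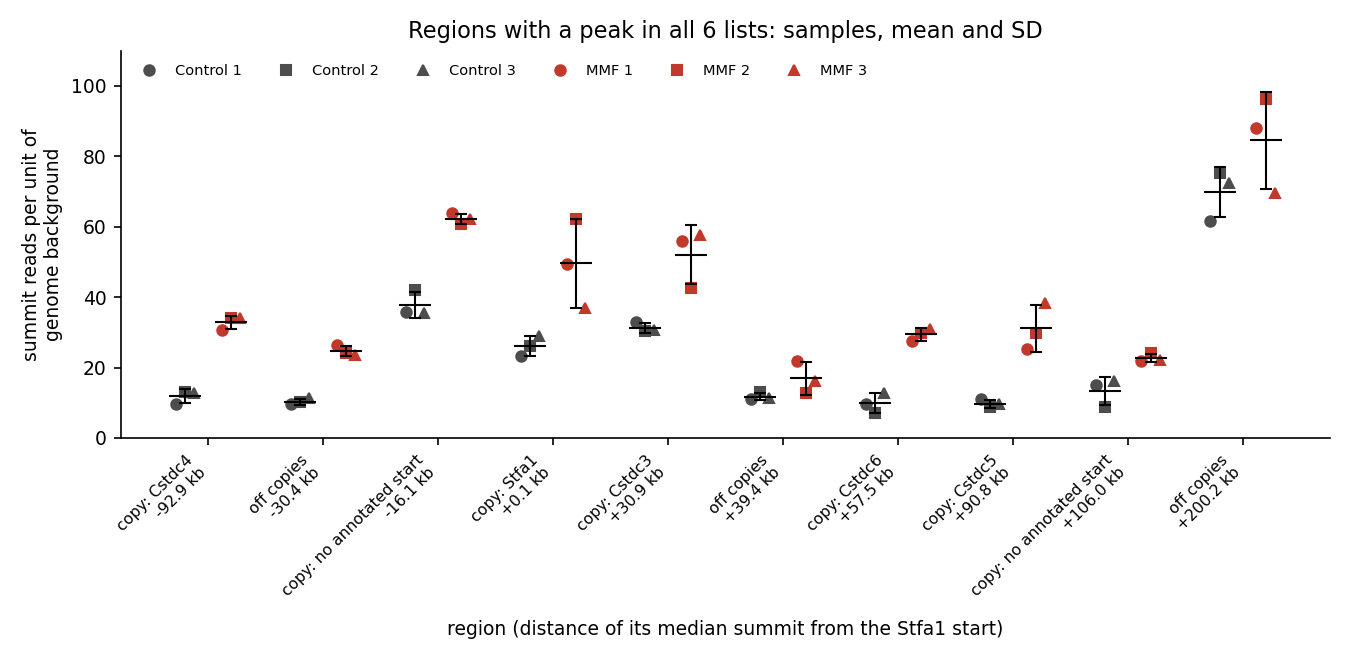
Summit reads per unit of genome background (vertical, from 0) in each of the 6 samples for the 10 regions of the locus with a peak in all lists (horizontal, in chromosome order with the distance of the summit from the Stfa1 start), with the mean and SD of each group (n = 3) in black. MMF samples (red) lie above all Control samples (grey) in 8 regions; the exceptions are the regions at 39.4 and 200.2 kb.

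On the read scale, all MMF samples were above all Control samples in 8 of these 10 regions and below in 0 (29.2% and 7.44% of 41011 regions genome-wide). The median log2 ratio of MMF to Control over the 10 regions was 0.85, against 0.33 over the regions of the flanking 200 kb and 0.16 over all shared regions. limma on the log2 of these values called 8 of the 10 regions higher and 0 lower (genome-wide, 18.8% and 0.968%), Stfa1 (adjusted p = 0.0151), the Cstdc3 copy (0.0185) and the printed copy with no annotated start (0.0117) among them. A region without a peak in some list has no value there and was left out of this comparison.

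The other regions gained with MMF included copies at the pseudogenes Gm7260 (ranks 44.7, 50.8 and 70.3) and Gm49652 (23.9, 60.5 and 52.6), and a copy with no annotated start at chr16:36191799-36192176 (55.4, 57.2 and 44.8). Away from the copies, chr16:36385604-36385976, inside Gm15845, had ranks of 65.4, 55.0 and 76.3, and chr16:36257882-36258120, just past the end of Csta2, had 43.3, 53.9 and 49.7. The other gained regions were chr16:36176198-36176478 (23.9, 37.5 and 57.8) and chr16:36189174-36189433 (26.9, 1.69 and 1.97). In the latter, at least 28.9% of the 36-base stretches are repeated, each reported with a second occurrence inside the locus. The region chr16:36465454-36465832, between Stfa3 and Casr, was called in Control 1 and 3 at ranks of 37.2 and 34.1 and with MMF at 85.1, 65.7 and 75.1.

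Outside the cluster, the promoters of stefins, cystatins and their targets mostly overlapped between groups. Of a list of 14 other stefin and cystatin genes, 12 could be matched to a protein-coding gene, 10 had a promoter peak, and 5 had all MMF ranks above all Control ranks and 0 all below (8.79% and 8.43% of all promoters). Each of the 5 is inside the locus (Csta2, Csta3, Cstdc4, Cstdc5 and Cstdc6). Cstb, which encodes stefin B, had ranks of 92.0, 82.3 and 83.5 in Control and 91.9, 81.1 and 67.7 with MMF. Cst3, the secreted cystatin C, had 95.7, 84.1 and 82.4 against 90.6, 87.3 and 88.3, and Cst7, the cystatin F of leukocytes, had 48.1, 63.5 and 28.7 against 50.9, 66.5 and 71.9. The groups overlap in all 3. Of 10 cysteine cathepsins, the proteases that stefins inhibit, 8 had a promoter peak with a median difference of -0.1 rank units, and 1 of the 8, Ctso, had all MMF ranks above all Control ranks (74.1, 81.0 and 58.6 in Control, 84.2, 89.1 and 85.1 with MMF). Of all promoters, 8.79% did. On the read scale Ctso overlapped between groups (24.7, 31.8 and 19.3 against 28.6, 34.0 and 35.5) and Ctsh did not (32.9, 27.5 and 30.6 against 35.2, 34.0 and 42.9 summit reads per unit of background). Cathepsins B, C, L and S (Ctsb, Ctsc, Ctsl and Ctss) had peaks in all 6 lists with overlapping groups.

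Some promoters of mature neutrophil and macrophage genes stood higher with MMF, as regions of the locus did. Of 13 such genes, 12 had a promoter peak, and the MMF ranks of 5, Ltf, Ngp, Camp, S100a8 and Csf1r, lay above all their Control ranks, while 0 lay below (8.79% and 8.43% of all promoters). On the read scale, 8 of the 12 had all MMF values above all Control values and 0 all below (7.53% and 15.1% of all promoters). The summed rank of the list was 344 to 480.0 in Control and 664 to 731 with MMF. Camp, which encodes a granule peptide, had 70.3, 26.1 and 75.9 in Control and 92.3, 95.7 and 86.6 with MMF. The part of a change in cell maturity or cell makeup in the locus was not tested. For the labelled cell type, Kit, Hoxa9 and Meis1 had promoter peaks in all 6 lists and Cd34 in 5, while Mpo and Prtn3, granule protein genes of such progenitors, had none. Elane, a further granule protease gene, had ranks of 0, 1.37 and 0 in Control and 1.64, 11.5 and 13.7 with MMF, where 0 stands for no peak. Fcgr3, an Fc receptor gene, had 0, 0 and 1.94 against 20.6, 21.5 and 12.4. With Meis1 (67.7, 70.2 and 51.6 against 70.4, 74.9 and 73.2), 3 of the 6 progenitor genes with a peak had all MMF ranks above all Control ranks. The summed rank of the 8 progenitor genes was 149.9 to 187 in Control and 192 to 258 with MMF. The read scale gave another direction for part of this list, with 2 genes all above (Elane and Fcgr3) and 2 all below, against 7.53% and 15.1% of all promoters. The latter were Hoxa9 (63.1, 69.4 and 64.5 in Control, 48.4, 53.8 and 51.7 with MMF) and Meis1 (112.5, 114.3 and 85.5 against 78.1, 79.3 and 76.9 summit reads per unit of background). The listed genes of other lineages were divided. Those with no promoter peak in any list included Pax5, Cd79a and Ms4a1 of B cells, Cd3e, Cd3d and Cd8a of T cells, and Krt5, Krt14, Trp63 and Krt1 of keratinocytes, which also use stefin A. Of the remaining lineage genes, Ebf1, Gata3, Bcl11b, Klf1 and Ivl had peaks in all 6 lists, and of 4 erythroid genes 3 had one.

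The genes outside the locus whose promoter ranks over the 6 lists lay closest to those of Stfa1, by Euclidean distance among 13933 genes, were Calm5 (distance 7.11), Myo1f (9.55), Btbd7 (9.92), Rpusd3 (10.0) and Mpp4 (10.3). Myo1f, a myosin of leukocytes, had ranks of 75.1, 81.5 and 83.3 in Control and 87.2, 91.4 and 85.2 with MMF. Likeness over 6 lists describes these ranks alone.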

How the data were processed

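ATAC-seq of 3 Control and 3 MMF samples was analysed from one peak list per sample. Per the labels, the authors used FastQC, Trim Galore, Bowtie2, MACS2 and the mm10 build, with peaks called on each sample separately; versions are not given in the sources used here. The deposited lists hold a fold enrichment (ratio of reads over the summit to local background), −log10 p and −log10 q values and a score, of which the score was not used. Peaks on chromosomes 1 to 19, X and Y were kept (at most 0.270% of a list left out), and the lists were merged at an overlap of at least 1 bp. Summit reads and background were solved from the deposited fold enrichment and −log10 p; whole reads came out for 99.73% to 99.82% of peaks (relative tolerance 0.0002, at most 399 reads), and 41011 of 41182 shared regions were solved in all lists. Total depth is unknown, and median summits held 14 to 19 reads.

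Shared regions were tested with limma 3.58.1 (R 4.3.3) on normal scores of percentile ranks by fold enrichment, without a block, with Benjamini-Hochberg adjustment over all 41182 regions; the step was tested on simulated data. Promoters were 1000 bp on either side of GENCODE M21 basic starts. Copies were found with BLASTN 2.17.0 (E-value at most 1e-05) and sequences read with pysam 0.24.0; Python 3.11.15, pandas 2.3.3 and scipy 1.17.1 were used. Named were the 4 stefin A genes, the protein-coding genes of the locus, regions present in all lists or gained, list genes with a peak in all lists and no overlap, and the 5 genes most like the highest stefin A gene; other genes and regions were named after their values were seen. Members, lists, the search for copies and the motifs were chosen with earlier results of these data known. Alternatives covered the ranking measure, list length, q, overlap, fixed windows, the 50 kb and 1000 bp limits, the replicate number as a block and each sample left out. Cstdc1 and Cstdc2 were matched through RefSeq synonyms, and proteins were not analysed here. One marker gene is not reported here.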

Additional observations from a re-analysis of the deposited data

How the results depend on the processing

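Of 115 recomputed differences for the 10 regions present in all lists, 113 were positive, and the 2 that turned negative belonged to the region between Stfa3 and Casr, -0.05 without Control replicate 1 and -0.088 without MMF replicate 2, in a range up to 0.50 with a sample left out. The number of these regions called higher went from 4 to 8 on log2 summit reads per unit of background, to 2 of 7 with a −log10 q of at least 3, and to 0 with any 1 sample left out. With the replicate number as a block it was 0 of 10, and the whole genome then had 0 calls in either direction by limma (4842 regions higher and 4131 lower at an unadjusted p below 0.05); same-numbered samples did not deviate together (correlations of 0.00698, 0.00296 and 0.00422), and nothing in the labels ties them. Gained regions fell from 8 of 38 to 5 of 24 when all lists were cut to 58496 peaks, and were 8 to 10 with a sample left out. Lost regions stayed at 0 in every alternative run. Regions in all lists numbered 6 of 23 within 25 kb, and 10 to 11 with a sample left out. The median log2 ratio of summit reads fell from 0.85 to 0.49 when scaled by the median summit of the shared regions of each sample, and ran from 0.80 to 0.97 with a sample left out. The medians over the flanks and over all shared regions were not rescaled alongside, so 0.49 cannot be set beside them. The rank difference of Stfa2 rests on MMF 1: it was 14.9, and 0 to 22.4 with a sample left out. For Stfa1 it ran from 11.4 to 17.6, for Stfa3 from 67.5 to 78.1 and for Stfa2l1 from 64.1 to 68.6. With another stefin A promoter as the query, an alternative chosen after seeing the data, 18 copies with a peak were found each time, of 19 or 20, and 17 to 18 with a sample left out. Where a value moved, the cause was not tested. Control summits of 5 to 9 reads limit the precision of the called regions.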
